A study of Homo sapiens with 7 samples.

Results

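GRIK2 and GRID1 are the members of the ionotropic glutamate receptor family found among 13872 genes measured in UM-UC-3, a human cell line established from a urothelial carcinoma. Both were taken by symbol from the table of gene expression, so they are 2 of 13872 genes and 2 of the 18 family genes searched for. The other 16 family genes and the 8 metabotropic receptor genes were not analysed here. Total RNA was sequenced from 7 cultures of the line. The cultures were 3 clones with high activity of aldehyde dehydrogenase (ALDH), named H1, H6 and H10, 3 clones with low activity, named L1, L3 and L8, and 1 culture of wild-type UM-UC-3. The sort used the ALDEFLUOR assay, in which cells fluoresce with ALDH activity. The submitters call the ALDH-high clones cancer stem-like and the ALDH-low clones non-stem-like. The labels give a medium with serum for the ALDH-high clones and name no other treatment. Each library is 1 clone of the same line, so n = 3 refers to clones, and the wild type is a single culture. Nothing in the labels gives repeat cultures of a clone.

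Ionotropic glutamate receptors are membrane proteins whose subunits assemble into an ion channel, which in most classes is opened by glutamate. GRIK2 encodes the kainate-type subunit GluK2, which can form channels on its own or with other kainate subunits, and its transcript is a classical substrate of adenosine-to-inosine editing at the pore. GRID1 encodes GluD1 of the delta class, which is known mainly as a synapse organiser that binds secreted cerebellins and, through them, neurexins. Both are best known from neurons. The series title names GRIK2 as an immunotherapy target in bladder cancer stem-like cells. GRIK2 was thus of interest to the study, and its difference between clones is not an independent finding here.

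GRIK2 (ENSG00000164418) lies on the plus strand of chromosome 6 and GRID1 (ENSG00000182771) on the minus strand of chromosome 10. In GENCODE release 29, 1 other gene overlaps GRIK2 and 7 overlap GRID1. None of these is among the 13872 measured genes, and no other gene shares the 7 values of either receptor. RefSeq (GRCh38.p14) lists 2 start regions for GRIK2. They are shown, as 250 bases before to 50 after each start, because GRIK2 RNA was nearly missing from the ALDH-low clones. Capitals mark CG dinucleotides, the bases at which DNA can be methylated.

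GRIK2 start region at chr6:101393458-101393757, plus strand: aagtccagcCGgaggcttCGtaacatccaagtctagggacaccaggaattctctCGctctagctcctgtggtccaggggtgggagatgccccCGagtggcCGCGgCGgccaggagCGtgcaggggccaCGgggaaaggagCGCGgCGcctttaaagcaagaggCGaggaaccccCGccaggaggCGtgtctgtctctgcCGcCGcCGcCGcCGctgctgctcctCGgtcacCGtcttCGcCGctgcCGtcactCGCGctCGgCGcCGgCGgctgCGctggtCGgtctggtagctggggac

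GRIK2 start region at chr6:101398735-101399034, plus strand: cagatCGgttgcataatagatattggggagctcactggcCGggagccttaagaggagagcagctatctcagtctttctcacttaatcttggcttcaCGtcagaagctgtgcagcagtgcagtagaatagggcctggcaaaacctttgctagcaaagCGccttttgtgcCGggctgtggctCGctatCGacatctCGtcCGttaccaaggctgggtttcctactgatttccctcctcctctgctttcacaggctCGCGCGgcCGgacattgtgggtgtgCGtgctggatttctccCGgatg

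The first region holds 33 CG dinucleotides at 69.3% G and C, more CG than 82.8% of 34943 RefSeq start regions of the same length, whose median is 14. The second holds 15 at 54.3% G and C, more than 51.2% of the regions. The TATA-box letters TATAAA, the GC-box letters GGGCGG and the E-box letters CANNTG were searched on both strands. Neither region holds any of them, whereas 11.6%, 44.9% and 68.7% of all regions hold the respective letters. No methylation or binding was measured, and the sources used here do not say which start the reads came from. GRID1 has no sequence shown.

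Levels are the deposited CPM, read counts scaled to library size, and the smallest step between values, taken as 1 read, is about 0.04 CPM. Totals over the listed genes were 24177114 to 25664901 recovered reads. The CPM of the listed genes summed to more than a full CPM total in 2 libraries, H1 (1019860 CPM) and the wild type, so the values are not plain shares of a total over these genes. The sources used here do not say how the scaling total was set. The totals recovered from the steps were nearly the same in H10 (24999949), L1 (24999949) and L8 (24999950). Read counts and their intervals rest on the step, and whether 1 step is 1 sequenced read was not tested. Intervals on single libraries are exact 95% Poisson intervals, which cover counting error only. On log2(CPM + 1) over 12705 genes, H1 correlated best with the wild type (Pearson r = 0.961, across genes, which are not independent), while the other 5 clones correlated with the wild type at 0.911 to 0.929 and H6 with H10 at 0.982. Results are therefore also given without H1. ALDH1A1, a main enzyme of the sorted activity, stood at 33.37 to 96.32 CPM in the ALDH-high clones and 0 to 0.08 CPM in the ALDH-low clones, and the wild type had 37.85 CPM.

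GRIK2 was present in every ALDH-high clone and in the wild type and was at or near 0 in every ALDH-low clone. It had 20.07 CPM in H1 (505 reads), 11.04 CPM in H6 (269 reads) and 24.56 CPM in H10 (614 reads). The ALDH-low clones gave 0 CPM in L1, 0.04 CPM in L3 and 0 CPM in L8, that is 1 read in all. The groups did not overlap, as in 26.1% of all genes tested (14% with ALDH-high clones higher). On reads, the lowest ALDH-high clone, H6, had 281 times the level of L3, with an interval of 50 to 11142 that reflects the single read in L3. A count of 0 allows up to 0.12 CPM in L1 and L8, taken as 3 reads each. The wild type had 15.79 CPM (395 reads), between H6 and H1, which is 0.851 of the ALDH-high mean. In RNA from whole cultures, fewer cells with GRIK2 and less GRIK2 RNA per cell cannot be told apart.

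The ALDH-high mean of GRIK2 was 18.6 ± 6.89 CPM and the ALDH-low mean 0.0133 ± 0.0231 CPM (SD, n = 3 each). The difference was 4.20 log2 units on log2(CPM + 1) (SE 0.296, 95% interval 3.52 to 4.88, limma adjusted p = 0.00103 over 12705 genes). By p it ranked 7 among all genes tested, of which 1.34% passed the threshold of 0.05 in either direction and 0.645% as higher in ALDH-high clones (0.693% as lower). On the pooled reads, 1388 against 1, the ratio was 1405. Its exact interval of 252 to 55544 covers counting error only, not the spread between clones, and reflects the single read. Without H1 the difference was 4.11 log2 units (limma adjusted p = 0.0051), and GRIK2 rose under all 18 alternative settings. GRIK2 met the filter of 1 CPM in 3 of the 6 clones only through the ALDH-high clones. Its entry into the test thus depended on the group where it is high. Without a filter its limma adjusted p was 0.0016. For a single gene, the smallest p of an exact permutation test between 3 and 3 clones is 0.1, which leaves the call to limma's moderated variance.

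Among the libraries that express GRIK2, the levels differed beyond counting error. The order was H10, H1, wild type, H6. H10 had 1.22 times the level of H1 (interval 1.09 to 1.38), H1 1.27 times that of the wild type (1.11 to 1.45) and the wild type 1.43 times that of H6 (1.22 to 1.68). H10 had 2.22 times the level of H6 (1.92 to 2.58). Each neighbour in this order thus differed by more than the sampling of reads, although no clone has a second library from which its own spread could be taken. Scaling the libraries by median ratios left the order as it was.

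GRID1 was scarcer, and its groups stood closer together. It had 1.19 CPM in H1 (30 reads), 3.24 CPM in H6 (79 reads) and 4.28 CPM in H10 (107 reads). The ALDH-low clones had 0.12 CPM in L1 (3 reads), 0.71 CPM in L3 (18 reads) and 0.28 CPM in L8 (7 reads). The groups did not overlap, but the lowest ALDH-high clone, H1, stood only 1.68-fold above the highest ALDH-low clone, L3. The ratio of their reads was 1.69 with an interval of 0.91 to 3.21, so these neighbours could not be told apart at this depth. Such separation was common, since 26.1% of the 12705 genes had groups that did not overlap and 14% did so with ALDH-high clones higher. The wild type had 1.80 CPM (45 reads), between H1 and H6, which is 0.62 of the ALDH-high mean.

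The ALDH-high mean of GRID1 was 2.90 ± 1.57 CPM and the ALDH-low mean 0.37 ± 0.305 CPM (SD, n = 3 each). The difference of 1.44 log2 units (SE 0.356, 95% interval 0.62 to 2.26) did not pass over all genes (unadjusted p = 0.00365, limma adjusted p = 0.0933). By p it ranked 496 among the 12705 genes. Pooled reads, 216 against 28, gave a ratio of 7.81 (exact interval 5.25 to 12, counting error only). Whether GRID1 passed depended on H1 and on the tool. Without H1 the difference was 1.81 log2 units and passed (limma adjusted p = 0.0449), with DESeq2 it passed (adjusted p = 0.00359), and with edgeR it did not (adjusted p = 0.0974). DESeq2 called 7.9% of all genes and edgeR 1.02%.

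**Figure D1:**
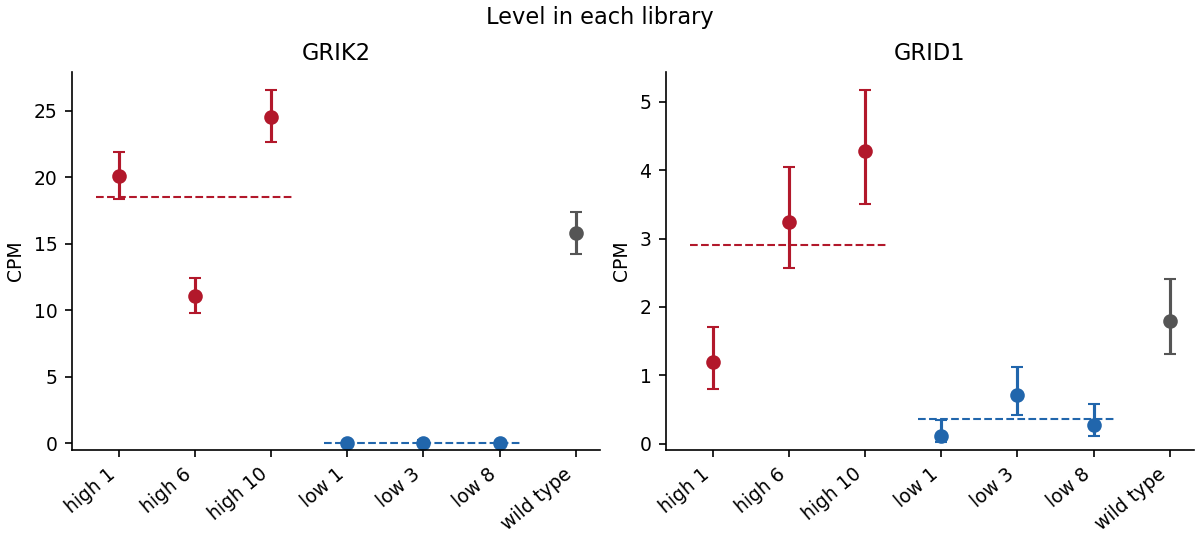
Level of GRIK2 (left) and GRID1 (right) in CPM in each of the 7 libraries, with ALDH-high clones in red, ALDH-low clones in blue and the wild type in grey. Bars are exact 95% Poisson intervals of the reads (for a count of 0, up to 3 reads) and dashed lines are the means of 3 clones; GRIK2 lies between 11.04 and 24.56 CPM in ALDH-high clones against at most 0.04 CPM in ALDH-low clones, whereas H1 and L3 are near each other for GRID1.

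**Figure D2:**
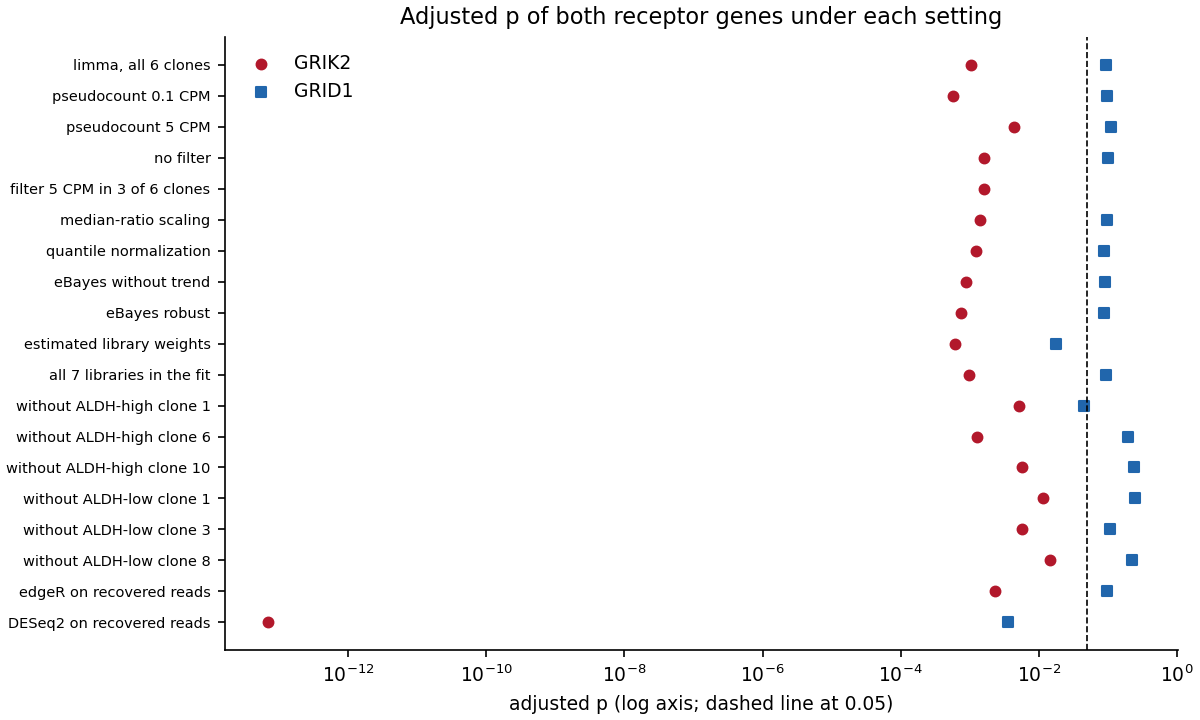
Adjusted p of GRIK2 (red circles) and GRID1 (blue squares) for ALDH-high against ALDH-low clones, on a log axis, under each setting of the analysis, with the threshold of 0.05 dashed. All GRIK2 points lie below the threshold, and GRID1 lies below it with library weights, without H1 and with DESeq2; GRID1 has no point at the 5 CPM filter, which removes it.

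The receptors did not follow the same order within the ALDH-high clones. Both were highest in H10, but H1 had the second highest GRIK2 level and the lowest GRID1 level of the 3. GRID1 in H10 and H6 differed by a ratio of 1.32 with an interval of 0.98 to 1.79, which includes equality, while H6 had 2.72 times the level of H1 (1.77 to 4.29). As a result the number of GRIK2 reads per GRID1 read was 16.8 in H1 (exact interval 11.6 to 25.2), 5.74 in H10 (4.67 to 7.11) and 3.41 in H6 (2.64 to 4.43). The wild type had 8.78 (6.44 to 12.2), between H1 and H10. These are ratios of reads, not adjusted for transcript length, and serve only to compare libraries. In each ALDH-low clone GRID1 had more reads than GRIK2. The interval of the ratio lay below equality in L3 (0.0556, 0.00133 to 0.352) and L8 (0 to 0.694) but not in L1 (0 to 2.42), which had 0 against 3 reads. Among the ALDH-low clones GRID1 was highest in L3, at 2.53 times the level of L8 (1.01 to 7.15), while L8 and L1 did not differ beyond counting error (2.33, interval 0.53 to 14). L3 also held the only GRIK2 read.

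Among the other genes of the glutamate system, 1 passed the test. Apart from GRIK2 and GRID1, the lists of receptors, receptor partners, glutamate transport, glutamate metabolism and RNA editing held 161 genes. These include the other ionotropic and the metabotropic receptor genes, which were not analysed here. Of the 161 genes, 90 were measured and 82 passed the filter on low values. Of these 82, 1 rose and 0 fell (limma), beside 1.34% called among all genes. Their median difference was -0.11 log2 units, against 0.00 for all genes tested. At an unadjusted p under 0.05 there were 18, edgeR called 1 and DESeq2 9, where 19.7%, 1.02% and 7.9% of all genes passed. At 1.34%, each single list would hold fewer than 1 limma call, so a count of 0 in a list is near the background. In 10 of the 82 the ALDH-high clones lay wholly above the ALDH-low clones and in 16 wholly below, against 14% and 12.1% of all genes.

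The gene that rose was ALDH5A1, the mitochondrial succinate semialdehyde dehydrogenase that ends the breakdown of the glutamate product GABA. It had 15.42, 13.59 and 11.44 CPM in H1, H6 and H10 against 4.36, 3.54 and 5.08 CPM in L1, L3 and L8, and 13.55 CPM in the wild type. As with GRIK2, the wild type was at the level of the ALDH-high clones. The difference was 1.44 log2 units (SE 0.21, limma adjusted p = 0.0264). The call was lost without any clone except L3 (adjusted p up to 0.113, and 0.0506 without H1).

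Of the partners of kainate receptors, 33 of 40 were measured and 31 tested, and limma called 0 in either direction (8 at an unadjusted p under 0.05, 0 by edgeR, 4 by DESeq2, beside 19.7%, 1.02% and 7.9% of all genes). In 4 of the 31 the ALDH-high clones lay wholly above and in 8 wholly below the ALDH-low clones, beside 14% and 12.1%. Their median difference was -0.14 log2 units. NETO2, the auxiliary subunit that slows the gating of GluK2 channels, was well expressed in all libraries and did not separate the groups. It had 29.01, 65.67 and 61.2 CPM in H1, H6 and H10, 41.72, 55.9 and 43.04 CPM in L1, L3 and L8, and 34.93 CPM in the wild type. H1 and the wild type were thus the lowest. Its paralog NETO1 was not analysed here.

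The 3 kainate receptor partners with the smallest p did not pass. PICK1, a PDZ-domain protein that binds receptor tails, had 6.39 ± 1.73 CPM in ALDH-high and 2.49 ± 0.0625 CPM in ALDH-low clones (1.05 log2 units, limma adjusted p = 0.075). DLG4, which encodes the synaptic scaffold PSD-95, had 4.77, 2.46 and 2.96 CPM in H1, H6 and H10 against 1.16, 1.3 and 1.04 CPM in L1, L3 and L8 (0.99 log2 units, adjusted p = 0.097), and its highest level, 7.51 CPM, was that of the wild type. PPP3CA, a catalytic subunit of the phosphatase calcineurin, was lower in ALDH-high clones at 7.13 ± 3.03 against 18.4 ± 2.90 CPM (-1.31 log2 units, adjusted p = 0.0681). DESeq2 passed all 3, with adjusted p of 0.00415, 0.0178 and 0.0017. Each of these 3 genes separated the groups without overlap, as did 26.1% of all genes. The 3 were picked for their small p in these same clones.

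For GRID1, few of the extracellular partners could be examined. Of 21 genes on the list 8 were measured and 7 tested, and limma and edgeR called 0. At an unadjusted p under 0.05 there was 1, and DESeq2 called 1, beside 19.7% and 7.9% of all genes. The cerebellins CBLN1, CBLN2 and CBLN4 and the neurexins were not analysed here, and CBLN3 had at most 0.64 CPM in any library. C1QL1 and C1QL4, secreted proteins related to cerebellins, stood at 1.99 to 6.64 CPM and 0.36 to 3.68 CPM over the 7 libraries with no separation of the groups. SHANK1, a scaffold that links receptor complexes, had the smallest p of the list, with 8.66, 7.02 and 11.76 CPM in H1, H6 and H10 against 13.52, 17.52 and 18.72 CPM in L1, L3 and L8 (-0.81 log2 units, limma adjusted p = 0.122). GOPC and BECN1, intracellular proteins tied to delta receptors, were the most abundant and differed by 0.09 and -0.11 log2 units (adjusted p = 0.749 and 0.701).

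Genes serving the AMPA and NMDA classes gave 0 calls among 12 tested of 30 listed by limma and edgeR. At an unadjusted p under 0.05 there were 2, and DESeq2 called 1, beside 19.7% and 7.9% of all genes. HOMER3, a postsynaptic scaffold, showed the widest spread, with 6.44, 71.7 and 40.32 CPM in H1, H6 and H10 against 118.64, 78.05 and 130.16 CPM in L1, L3 and L8, and 11.95 CPM in the wild type (-1.93 log2 units, SE 0.727, limma adjusted p = 0.198). HOMER2 had 5.66 against 14.1 CPM (adjusted p = 0.183). GRINA, a transmembrane protein named for its link to NMDA receptors and not a channel subunit, and CNIH, a cornichon cargo receptor, were the most abundant, with adjusted p of 0.259 and 0.359.

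Glutamate carriers gave 0 calls among 9 tested of 17 listed by limma and edgeR (4 at an unadjusted p under 0.05, 2 by DESeq2, beside 19.7% and 7.9% of all genes). SLC25A12, a mitochondrial aspartate-glutamate carrier, had 18.8 ± 6.58 against 39.3 ± 13.2 CPM (-1.03 log2 units, limma adjusted p = 0.122). SLC25A22, a mitochondrial glutamate carrier, had 41.3 ± 1.40 against 29.7 ± 0.254 CPM (0.46 log2 units, adjusted p = 0.129). The amino acid transporters SLC38A2 and SLC1A5 were the most abundant, with adjusted p of 0.134 and 0.656. Of the enzymes of glutamate metabolism all 21 measured of 28 listed were tested, and ALDH5A1 was the 1 called by limma, beside 1.34% of all genes. At an unadjusted p under 0.05 there were 3, edgeR called 1 and DESeq2 1, beside 19.7%, 1.02% and 7.9% of all genes. GLUD1, glutamate dehydrogenase, and OAT, ornithine aminotransferase, were the most abundant, with differences of -0.01 and 0.30 log2 units (adjusted p = 0.970 and 0.597).

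ADAR and ADARB1 encode the enzymes that edit receptor transcripts, ADARB1 being the one known for the pore site of GRIK2. ADAR stood at 55.88 to 72.04 CPM in all libraries (limma adjusted p = 0.587). ADARB1 had 3.26 CPM in H1 and 4.64 CPM in the wild type against 21 to 29.18 CPM in the other 5 clones (adjusted p = 0.699 between the groups). Its level therefore set H1 and the wild type apart and did not follow ALDH activity. Of the libraries rich in GRIK2, H6 and H10 had high ADARB1 and H1 and the wild type low. Editing itself was not measured.

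**Figure D3:**
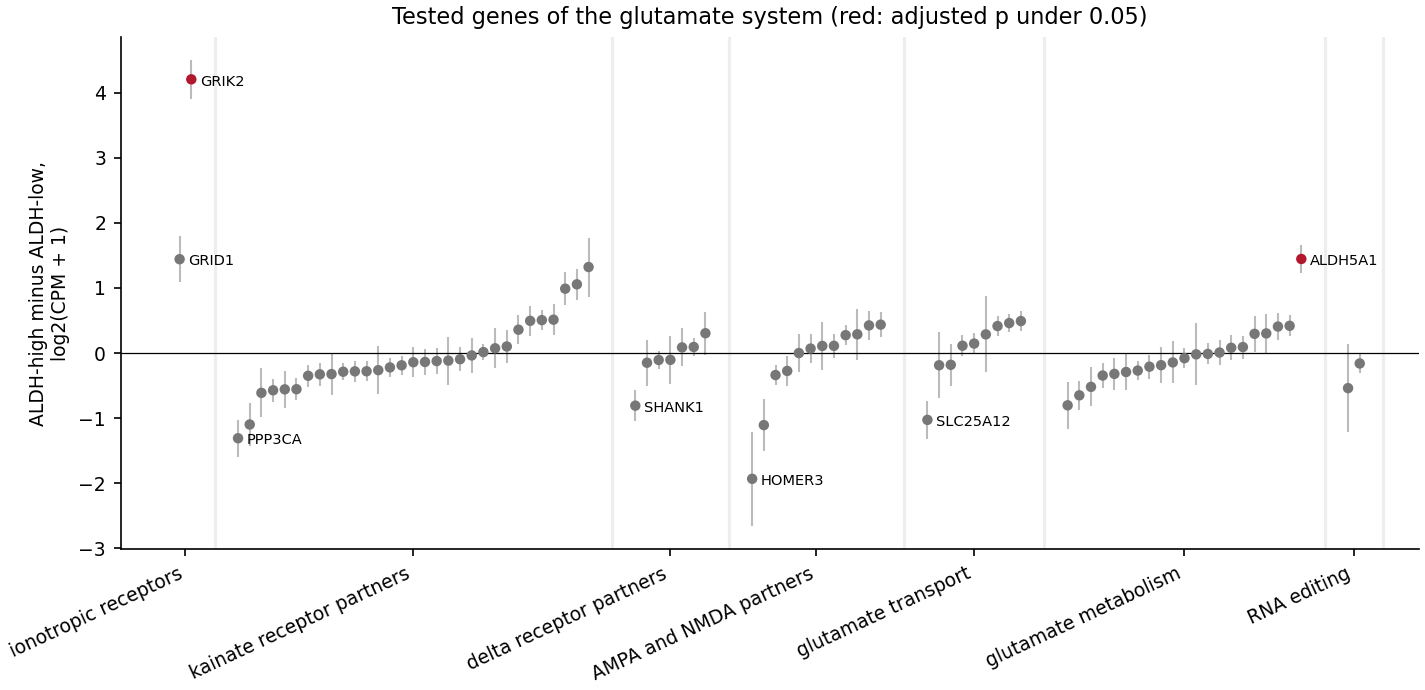
Difference between ALDH-high and ALDH-low clones on log2(CPM + 1), with its standard error, for each tested gene of the glutamate system, ordered by size within each list. GRIK2 at 4.20 and ALDH5A1 at 1.44 passed limma's threshold (red); GRID1, also at 1.44, did not, and the remaining genes run from -1.93 for HOMER3 to 1.32 for SNAP25.

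Since kainate and delta receptors are best known from neurons, neuronal markers were set beside them. Of 21 markers 10 were measured, and limma, edgeR and DESeq2 called 0 of the 7 tested. At an unadjusted p under 0.05 there was 1, beside 19.7% of all genes. The median difference of the 7 was 0.47 log2 units, against 0.00 for all genes tested. Of the 7, 5 were higher and 2 lower in ALDH-high clones, beside 6407 and 6298 of all genes tested. The defining markers RBFOX3, STMN2, ELAVL3, ELAVL4, DCX and SYT1 were not analysed here. The summed level was 214 to 331 CPM in ALDH-high clones, 211 to 224 CPM in ALDH-low clones and 235 CPM in the wild type, and its part in the result on GRIK2 was not tested. UCHL1, TUBB3 and ENO2 made up most of it, with adjusted p of 0.278, 0.382 and 0.272. SNAP25, a vesicle fusion protein gene and the 1 with an unadjusted p under 0.05, had 18.56, 13.09 and 9.68 CPM in H1, H6 and H10 against 2.96, 2.95 and 11.08 CPM in L1, L3 and L8, so its groups overlapped (1.32 log2 units, limma adjusted p = 0.17). The 3 markers that did not pass the filter differed in pattern. MAP2 was at 3.22, 0.21 and 0.52 CPM in H1, H6 and H10 and at 0.04, 0 and 0.12 CPM in L1, L3 and L8. NEFL was at 8.9, 8.91 and 0.04 CPM in H1, H6 and H10 and at most 0.2 CPM in the ALDH-low clones. NCAM1 was at 58.81 CPM in L3 and at most 0.08 CPM in the other 5 clones, and without it the summed level of L3 was 157 CPM.

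Of 19 epithelial and urothelial markers 5 were measured, and limma and edgeR called 0 of the 4 tested. At an unadjusted p under 0.05 there were 2, and DESeq2 called 1, beside 19.7% and 7.9% of all genes. The uroplakins, EPCAM, CDH1 and GATA3 were not analysed here, so the urothelial label could be checked only in part. KRT18 and KRT8 were abundant in all 7 libraries, at 142.95 to 582.39 CPM and 56.16 to 391.35 CPM, and KRT7 was at 1.48 to 7.19 CPM. The transcription factor genes FOXA1 and PPARG, also on the list, were low, at 0.40 to 1.96 CPM and 0.24 to 7.94 CPM. None of the 9 fibroblast markers was analysed here, and of 9 blood and endothelial markers CD68 was measured, at 64.36 to 139.04 CPM.

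The genes whose pattern was most like that of GRIK2 were also near 0 in all ALDH-low clones and present in the wild type. Likeness was Pearson's r of log2(CPM + 1) over the 7 libraries, among 5826 other tested genes with a range of at least 1 log2 unit. It describes these libraries only, and for genes that are present in 4 libraries and near 0 in 3 it mostly measures that contrast. The highest values were those of EPHA7, an ephrin receptor (r = 0.994), RP11-151D14.1 (0.992), PCSK1N, a proprotein convertase inhibitor (0.991), LPHN3, an adhesion receptor (0.989), the zinc finger gene ZNF717 (0.988), ALDH1A1 (0.988), ZNF813 (0.986) and EDIL3, an integrin ligand (0.986). In all, 119 genes reached 0.9. The 8 genes lie on 7 chromosomes. EPHA7 shares chromosome 6 with GRIK2, 18 places before it in the order of measured genes, and ALDH1A1 and RP11-151D14.1 share chromosome 9.

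Within the expressing libraries these genes did not copy the order of GRIK2. EPHA7 had 106.22, 57.17 and 73.92 CPM in H1, H6 and H10 and 68.3 CPM in the wild type, so it was highest in H1, where GRIK2 was second. ALDH1A1 had 96.32, 33.37 and 42.2 CPM in H1, H6 and H10, and was also highest in H1. The highest ALDH-high value of LPHN3, 20.07 CPM, was in H1 as well. ZNF813, at 1.15, 1.23 and 1.72 CPM in H1, H6 and H10 and 0 in all ALDH-low clones, shared with GRIK2 the top value in H10. H6 had the lowest value of the 3 ALDH-high clones in 7 of the 8 genes, as for GRIK2, the exception being ZNF813.

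GRID1 had other companions. Among the 8 most like it were MANF, a secreted endoplasmic reticulum stress protein (r = 0.977), ZNF783 (0.977), the hyaluronidase gene HYAL2 (0.964), RIMS4, a presynaptic protein gene (0.936), C19orf57 (0.936), GLIPR1 (0.932) and KIAA0146 (0.929). None of the 8 was among the 8 most like GRIK2. RIMS4 had 1.19, 1.81 and 2.52 CPM in H1, H6 and H10 against 0.2, 0.08 and 0.24 CPM in L1, L3 and L8, with 1.28 CPM in the wild type. Among ALDH-high clones it was thus lowest in H1 and highest in H10, as GRID1 was. The genes of both sets were picked for their likeness in these same libraries, so their differences are given without a test. With a pseudocount of 0.1 CPM in place of 1, 6 of the 8 genes for GRIK2 and 3 of the 8 for GRID1 were again among the 8 most alike. The likeness of GRIK2 to GRID1 was r = 0.845, which ranked 242 among the genes most like GRIK2 and 83 among those most like GRID1.

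**Figure D4:**
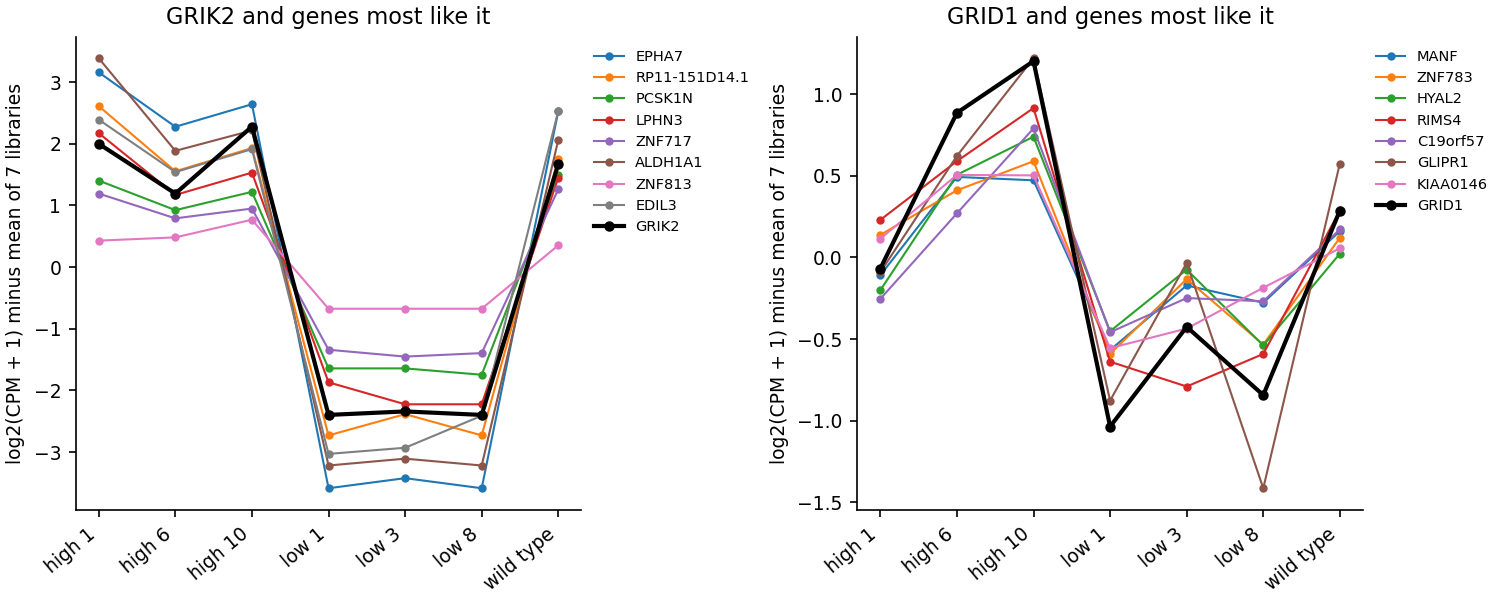
Centred log2(CPM + 1), that is each gene's value minus its mean over the 7 libraries, for GRIK2 and GRID1 (black), the 8 genes most like GRIK2 and 7 of the 8 most like GRID1 (colours). Lines join the values of 1 gene and imply no order of libraries; the left panel is set by low values in the 3 ALDH-low clones, and in the right panel H1 lies below H6 and H10.

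The genes next to GRIK2 on its chromosome differed less than GRIK2 did. Of the 5 nearest measured genes on each side of GRIK2, from CCNC to PREP, all 10 were tested and limma, edgeR and DESeq2 called 0, where limma called 1.34% of all genes. At an unadjusted p under 0.05 there were 5 (19.7% of all genes). In 3, ASCC3, RP3-467N11.1 and HACE1, the ALDH-high clones lay wholly above the ALDH-low clones, as for GRIK2, and in 2 wholly below (14% and 12.1% of all genes). Their differences ran from -0.62 log2 units for BVES, a membrane protein gene, to 0.57 for RP3-467N11.1, against 4.20 for GRIK2. ASCC3, which encodes a helicase and lies upstream of GRIK2, had 57.5, 60.33 and 68.48 CPM in H1, H6 and H10 against 35.52, 48.44 and 46.72 CPM in L1, L3 and L8 (0.51 log2 units, adjusted p = 0.158). HACE1, a ubiquitin ligase gene on the other side, had 13.2 against 9.14 CPM (0.51 log2 units, adjusted p = 0.247). Both were expressed in all ALDH-low clones, in which GRIK2 had 0 or 1 read.

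Around GRID1, 6 of the 10 nearest measured genes were tested and limma, edgeR and DESeq2 called 0 (2 at an unadjusted p under 0.05, beside 19.7% of all genes). WAPAL, a cohesin release factor gene, had 139 against 179 CPM (-0.36 log2 units, adjusted p = 0.226) and CCSER2 57.2 against 74.2 CPM (-0.36 log2 units, adjusted p = 0.233). These 2 lie on opposite sides of GRID1 and were lower in the ALDH-high clones, where GRID1 was higher. NRG3, a neuregulin gene that did not pass the filter, was at 3.69 CPM in L3 and at 0 in the other 5 clones. AGAP11 and SNCG, at 0.377 against 1.21 CPM and 0.107 against 0.65 CPM, also did not pass it.

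**Figure D5:**
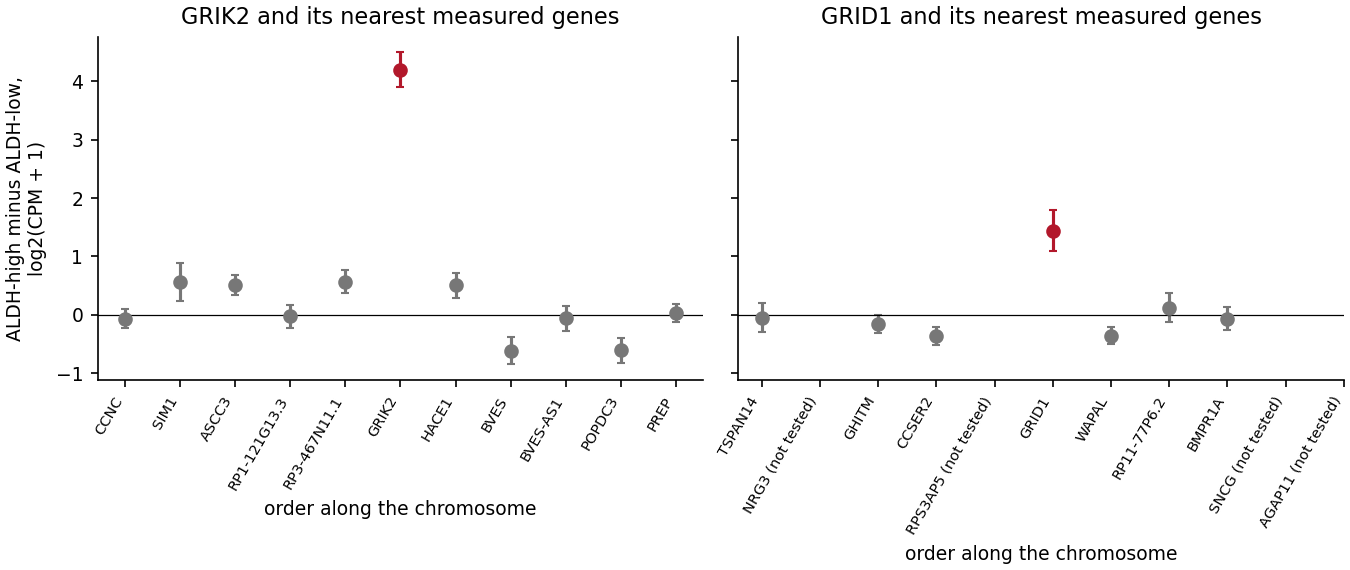
Difference between ALDH-high and ALDH-low clones on log2(CPM + 1), with its standard error, for GRIK2 and GRID1 (red) and the 5 nearest measured genes on each side (grey), in GENCODE 29 order. The neighbours of GRIK2 lie between -0.62 and 0.57, and those of GRID1 that were tested between -0.36 and 0.12; genes named without a point were not tested.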

How the data were processed

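The authors deposited CPM (counts scaled to library size) for 13872 genes in 7 libraries, rounded to 2 decimals. The submitters' processing notes list the read aligner BWA 0.5.9 and, as builds, hg19 and mm9, with no role for each. Per the file headers each column carries the name CAGEr, that of a package for 5′-end tags. The sources used here do not give the library type, the counting or its use of strand. All genes reached 0.52 CPM in some library, so low genes had been removed.

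Whole reads were recovered as multiples of the CPM of 1 read for 100% of the values at a tolerance of 0.0051 CPM, the rounding. At 0.1 read, 78.7 to 99.8% passed, so single read numbers are less certain in 4 columns. Identical values in all 7 libraries were found for 1017 genes, neither receptor among them.

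The 12705 genes that reached 1 CPM in 3 or more of the 6 clones were compared on log2(CPM + 1), ALDH-high minus ALDH-low, with limma 3.58.1 in R 4.3.3 (eBayes with trend, two-sided, Benjamini-Hochberg over all tested genes, threshold 0.05). A fold on this scale understates the change of low genes. edgeR 4.0.16 and DESeq2 1.42.0 on recovered reads were alternatives, besides pseudocounts, filters, scalings, moderation, weights and each clone left out with the tested genes kept as they were. The limma and edgeR steps were tested on simulated data. The wild type, with 1 library, was compared by description only. P-values set the difference between the groups against the spread between clones of 1 line, which limma moderates over all genes.

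Members and gene lists were chosen with earlier results of these data known. The rule named both receptors, the called genes of each glutamate list or else the 3 with the smallest p, the 2 most abundant, the 8 genes most like each receptor, the 5 nearest measured genes on each side, the 3 most abundant markers of each list and ALDH1A1. Not every gene named by the rule is reported here. A few other genes, such as NETO2, CBLN3, C1QL1, MAP2, NEFL, NCAM1 and NRG3, were named after their values were seen. Gene order came from GENCODE 29 (GRCh38), matched by identifier for 96.6% of genes, and is used only for order and chromosome because the notes name hg19.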

Additional observations from a re-analysis of the deposited data

How the results depend on the processing

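GRIK2 kept its direction and its call under all 18 alternatives, and leaving out 1 clone at a time gave 3.97 to 4.52 log2 units. The size of its difference depended on the pseudocount and the tool. It was 2.19 log2 units with a pseudocount of 5 CPM and 7.31 with 0.1 CPM. On reads, edgeR gave 9.97 and DESeq2 10.3. GRID1 kept its direction in all 17 alternatives that could test it, and the 5 CPM filter removed it. It passed with estimated library weights (1.78 log2 units, limma adjusted p = 0.0174), which weight H1 least, and with DESeq2 (2.97, adjusted p = 0.00359). The DESeq2 value is on reads and not on log2(CPM + 1), so the 2 sizes are not alike. With a pseudocount of 0.1 CPM limma gave GRID1 2.71 log2 units. Leaving out 1 clone gave GRID1 1.18 to 1.81 log2 units, with a call only without H1. The count of all called genes, 170, became 86 with the 5 CPM filter, 700 with library weights and 1004 with DESeq2, and 34 to 173 with 1 clone left out (34 without H10, 37 without L8, 44 without L1, 57 without H6). The count in the glutamate system, 2 with GRIK2 included, became 6 with library weights and 11 with DESeq2, and 1 or 2 with 1 clone left out. The causes were not tested.

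The sign of ADARB1 turned with library weights (0.11 log2 units). With 1 clone left out it ran from -1.02 to 0.39 for ADARB1, -0.19 to 0.0739 for BMPR1A, -0.15 to 0.045 for BVES-AS1, -0.21 to 0.0389 for CALM2, -0.18 to 0.0034 for CCNC, -0.13 to 0.11 for GLUD1, -0.0353 to 0.50 for OAT, -0.046 to 0.13 for PREP, -0.19 to 0.065 for RP1-121G13.3, -0.0422 to 0.31 for RP11-77P6.2 and -0.23 to 0.18 for TSPAN14. None of these genes was called. No paired analysis was possible because the clone groups share only the number 1, which is a clone's name. GRID1 rests on 3 to 107 reads per library and the ALDH-low level of GRIK2 on 0 or 1, so intervals there are wide.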
